A study of Mus musculus with 12 samples.

Results

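The genes described here are 39 chaperones, chaperone partners and their regulator in mouse Th17 cells, the interleukin-17-producing class of helper T cell. They were chosen by name, as members of the HSP90, HSP70, HSP110, J-domain, chaperonin and co-chaperone families, with no threshold on a measured value. Earlier results of these data were known at that choice, so shares set beside those of all genes are descriptive. Of the 39, 38 had a row among the 35275 gene identifiers of the count table, and Hspa14 was not analysed here. The study asked how a glucocorticoid and a cytokine, alone and together, alter gene expression in these cells. RNA was sequenced from Wild-type naive CD4+ T cells driven to the Th17 fate in culture for 72 h on bound anti-CD28 and anti-CD3, with IL-6, TGF-B and blocking antibodies to IL-4 and IFN-g, conditions that all groups share. The untreated group received nothing more, the Dex group dexamethasone (a synthetic glucocorticoid), the IL-1B group interleukin-1 beta, and the Dex+IL-1B group both agents, each for 4 h before harvest. Each group holds 3 libraries, and nothing in the labels says whether the libraries of a group came from separate mice or cultures, so a p-value here measures the spread between libraries, which may be technical.

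HSP70 holds unfolded proteins in a cycle in which J-domain proteins deliver clients and HSP110 and BAG proteins release nucleotide, and STIP1 then passes some clients on to HSP90. HSP90, with co-chaperones such as p23, AHA1, CDC37 and the FKBP immunophilins, matures protein kinases and steroid receptors, among them the glucocorticoid receptor to which dexamethasone binds. Barrel-shaped chaperonins enclose other proteins, CCT in the cytosol (actin and tubulin are its best known clients) and the HSP60 and HSP10 pair in mitochondria. Heat shock factor 1 switches on many of these genes when proteins unfold, the endoplasmic reticulum members are driven by the unfolded protein response, and activated T cells raise chaperones as they grow.

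Levels are counts-per-million values (CPM), scaled between libraries by the trimmed mean of M-values. Total counts ran from 16904106 to 30445734 reads a library, and 13821 genes, all 38 members among them, had enough reads to be tested with edgeR's quasi-likelihood test. A gene is called when its p, adjusted by Benjamini-Hochberg over all tested genes, is under 0.05. The T cell genes Cd3d, Cd3e, Cd3g, Cd4 and Trbc1 and the Th17 genes Il17a and Il17f were present in every library, while the myeloid list summed to at most 6.14 CPM and its macrophage marker Adgre1 had 1 read in all 12 libraries together. The summed level of the 5 T cell genes was 1486 to 1552 CPM in the untreated, 1328 to 1521 in the Dex, 1167 to 1248 in the IL-1B and 1142 to 1179 in the Dex+IL-1B libraries. That of the 7 B cell markers was 119 to 191, 90.5 to 114, 91.8 to 108 and 91.5 to 103 CPM in the same order. In bulk RNA, fewer cells of a type and less RNA per cell cannot be told apart. IL-1B library 2 and Dex+IL-1B library 1 stood apart: 3 genes that overlap ribosomal RNA sequence (Gm42418, Gm26917 and Lars2) summed to 14036 and 18550 CPM there and to 2328 to 5644 CPM in the other 10 libraries. The same IL-1B library 2 held 57.1 CPM of Cd3e against 135 and 135 in its group. Calls named below that change without these 2 libraries are given both ways.

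Th17 cells without treatment already held most of these chaperones at high levels. Per kilobase of exon, Hsp90ab1, the constitutive cytosolic HSP90, stood at 1254 CPM and ranked 20 of 13821 tested genes. It was followed by Hspa8, the constitutive cytosolic HSP70, at 574 (rank 62) and by Hsp90aa1, the stress-inducible HSP90, at 234 (rank 152). At the other end lay the classical heat-inducible HSP70 genes, Hspa1b at 0.337 CPM per kilobase (rank 12260) and Hspa1a at 0.0447 (rank 13647). Bag3, another gene known for strong induction by heat, stood at 3.18 CPM per kilobase. The 38 genes together took 1.47 to 1.55% of all reads in the untreated libraries and 1.47 to 1.55% in the Dex libraries. They took 1.84 to 2.00% with IL-1B and 1.73 to 1.89% with Dex+IL-1B, so that no library with IL-1B overlapped one without it.

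IL-1B raised chaperones across nearly all of the families. Against untreated, 26 of 38 members were called higher and 1 lower, where 11.9% of all tested genes were called higher and 9.51% lower. The median log2 fold change was 0.38 over the members and -0.0036 over all tested genes. For 30 members all 3 IL-1B libraries lay above all 3 untreated ones, for 2 (Hspa4l and Dnajc7) all lay below, and for 6 the groups overlapped. How many of all tested genes separate in this way was not counted, so these numbers have no background beside them. By family, 3 of 4 HSP90 paralogs, 3 of 5 HSP70 genes, 2 of 4 HSP110 and BAG genes, 3 of 7 J-domain genes, both mitochondrial chaperonin genes, 7 of 7 CCT subunits and 6 of 8 co-chaperones were called higher. By compartment these were 4 of 4 mitochondrial genes, 2 of 3 of the endoplasmic reticulum and 20 of 31 of the cytosol and nucleus. Dex+IL-1B against untreated gave 23 members higher and 1 lower, beside 10.3% and 7.82% of all genes. Dex+IL-1B against Dex, which shares no library with the IL-1B comparison, gave 19 higher and 1 lower, beside 8.6% and 4.98%. Of the 26 and the 19, 16 were the same genes, 61.5% of the first list and 84.2% of the second. Both comparisons were read from 1 fit, whose spread was estimated over all 12 libraries. The overlap to be had by chance was not computed. The member that was lower was Hspa4l in all 3 comparisons. Without the 2 libraries that stood apart, 28, 25 and 21 members were called higher in the 3 comparisons. With single libraries left out the first count ran from 21 to 27, and the other counts fell further: leaving out untreated library 1, 2 or 3, Dex library 1 or 3, or Dex+IL-1B library 1 or 3 left 11, 9, 15, 15, 15, 12 and 14 of the 23, and leaving out Dex library 1, 2 or 3 or Dex+IL-1B library 1 or 3 left 12, 7, 10, 8 and 12 of the 19.

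**Figure D1:**
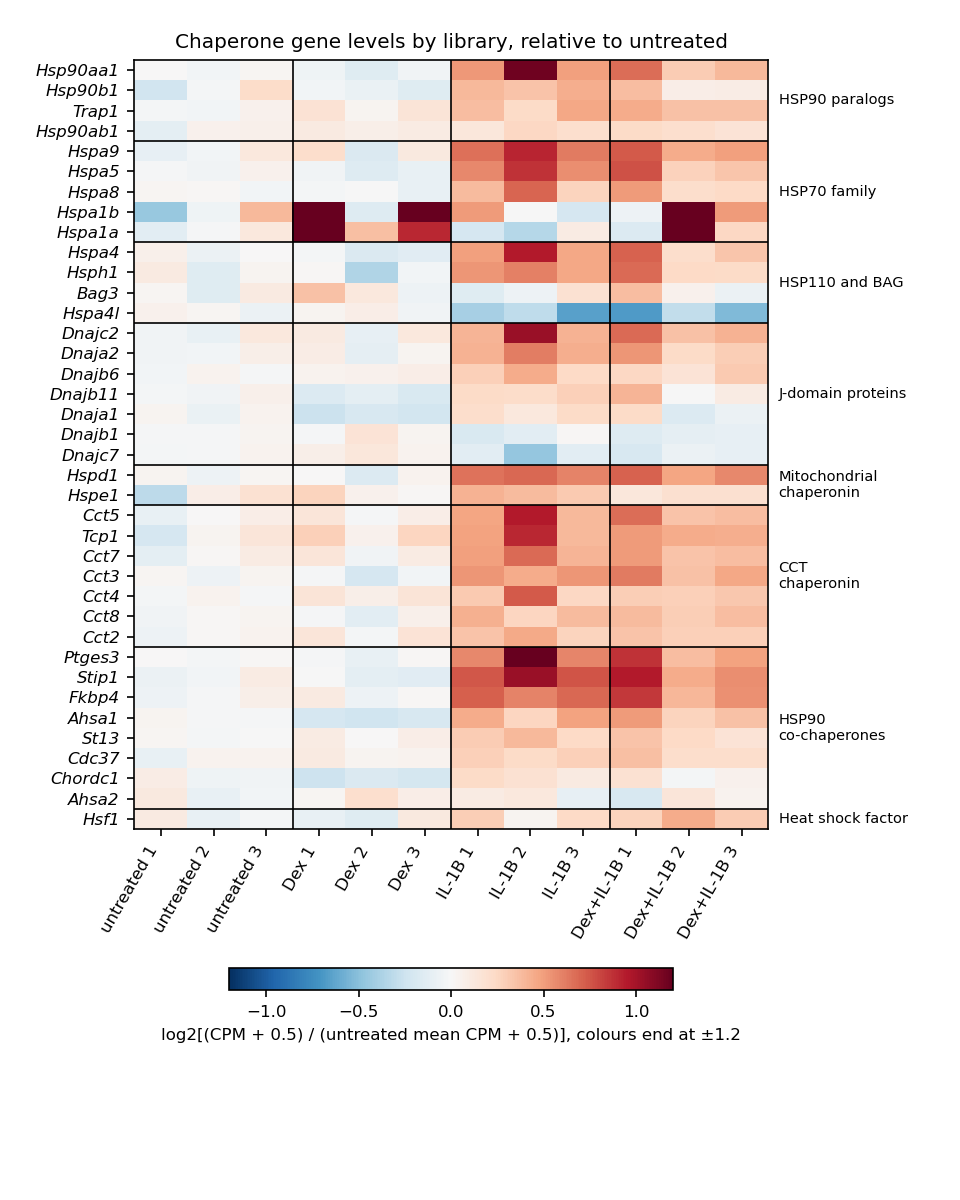
Level of each of the 38 genes in each of the 12 libraries as log2 of CPM + 0.5 over the untreated mean + 0.5, rows by family. Colours end at 1.2 in either direction. The IL-1B and Dex+IL-1B columns are red for most rows from Hsp90aa1 to Cdc37, the Hspa4l row is blue there, and the Hspa1a and Hspa1b rows are dark in single Dex and Dex+IL-1B libraries.

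The HSP90 paralogs differed in how far they moved. Hsp90aa1 held 922, 898 and 934 CPM in the untreated libraries, 887, 831 and 892 with Dex, 1321, 2065 and 1293 with IL-1B and 1457, 1138 and 1206 with Dex+IL-1B. Every library with IL-1B lay above every library without it, and IL-1B library 2 was far above the others. The gene rose by 0.76 ± 0.15 on the log2 scale with IL-1B (SE; adjusted p = 0.00392), and by 0.52 without the 2 libraries that stood apart. With Dex already present the rise was 0.54 ± 0.15 (adjusted p = 0.0310). Hsp90ab1, the more abundant paralog, held 3458, 3898 and 3925 CPM untreated, 4049, 3951 and 4031 with Dex, 4131, 4476 and 4322 with IL-1B and 4419.6, 4311 and 4222 with Dex+IL-1B. Its IL-1B libraries also lay above all untreated ones, yet the difference, 0.20 ± 0.077 (95% interval 0.032 to 0.36), was not called (adjusted p = 0.0832). The ratio of Hsp90aa1 to Hsp90ab1, both per kilobase, was 0.176 to 0.203 in untreated, 0.161 to 0.169 in Dex, 0.228 to 0.352 in IL-1B and 0.201 to 0.252 in Dex+IL-1B libraries. Because 47.5% of the 50-base stretches of Hsp90aa1 transcripts also occur in other genes, mostly the pseudogene Gm12346, its exact level is uncertain. Hsp90b1, the HSP90 of the endoplasmic reticulum (GRP94), rose by 0.39 ± 0.11 with IL-1B (adjusted p = 0.0254; up to 0.109 over the alternatives) and was not called with Dex+IL-1B against untreated (0.19 ± 0.11, adjusted p = 0.283). Nor was it called with Dex+IL-1B against Dex (0.27 ± 0.11, adjusted p = 0.128). Trap1, the HSP90 of mitochondria, held 101, 101 and 106 CPM untreated, 116, 105 and 114 with Dex, 133, 120.1 and 142 with IL-1B and 139.6, 131 and 131 with Dex+IL-1B, and again no IL-1B-treated library reached down to the untreated ones. Its rise was 0.36 ± 0.082 with IL-1B (adjusted p = 0.00726) and 0.39 ± 0.081 with Dex+IL-1B against untreated (adjusted p = 0.00574).

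Within the HSP70 family the organelle and the constitutive genes rose and the heat-inducible pair was not called. Hspa5, the endoplasmic reticulum HSP70 known as BiP, held 491, 482 and 513 CPM untreated, 482, 444 and 464 with Dex, 741, 901 and 729 with IL-1B and 839, 601 and 624 with Dex+IL-1B. The IL-1B-treated libraries did not overlap the rest, and the 2 highest values came from the libraries that stood apart. The rise was 0.67 ± 0.12 with IL-1B (adjusted p = 0.00232; 0.58 without those 2 libraries) and 0.57 ± 0.12 with Dex+IL-1B against Dex (adjusted p = 0.00797). Hspa9, the mitochondrial HSP70 (mortalin) that pulls imported proteins into the matrix, held 415, 433 and 483 CPM untreated, 513, 394 and 483 with Dex, 701, 834 and 682 with IL-1B and 741, 606 and 625 with Dex+IL-1B. Here too the groups with and without IL-1B were fully separate, with rises of 0.74 ± 0.12 (adjusted p = 0.00129) and 0.51 ± 0.12 (adjusted p = 0.0134). Hspa8, which folds new proteins and feeds clathrin uncoating and autophagy, held 2504, 2488 and 2421 CPM untreated, 2425, 2455 and 2317 with Dex, 3216, 4006 and 2971 with IL-1B and 3510.3, 2869 and 2924 with Dex+IL-1B. It rose by 0.46 ± 0.11 with IL-1B (adjusted p = 0.0100) and by 0.37 ± 0.11 over Dex (adjusted p = 0.0396), while Dex+IL-1B against untreated missed the threshold (0.33 ± 0.11, adjusted p = 0.0540) and was called without the 2 libraries that stood apart (0.24, adjusted p = 0.0131; 0.0106 to 0.174 over the alternatives).

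Hspa1a and Hspa1b, the near-identical genes that heat induces most strongly, had few reads and varied by library. Hspa1a had 2, 4 and 4 reads in the untreated libraries, 30, 7 and 17 with Dex, 1, 0 and 3 with IL-1B and 1, 99 and 6 with Dex+IL-1B. Hspa1b had 14, 28 and 29 reads untreated, 102, 18 and 70 with Dex, 31, 17 and 13 with IL-1B and 14, 245 and 37 with Dex+IL-1B. The high values were those of Dex libraries 1 and 3 and, above all, of Dex+IL-1B library 2, which held 10.4 CPM of Hspa1b against 0.883 and 1.56 in its group. Neither gene was called in any comparison: Hspa1b gave 1.51 ± 0.86, adjusted p = 0.644 for Dex against untreated and 2.22 ± 0.85, adjusted p = 0.0947 for Dex+IL-1B against untreated. For Dex+IL-1B against Dex, leaving out Dex+IL-1B library 2 turned the sign, from 1.02 to -2.12 for Hspa1a and from 0.71 to -1.10 for Hspa1b, both still uncalled. For Dex+IL-1B against untreated, the difference of 3.52 ± 1.19 for Hspa1a (adjusted p = 0.0579) was called in DESeq2, without Dex+IL-1B library 1 or 3 and without the 2 libraries that stood apart, with adjusted p from 0.0127 to 0.85 over all alternatives. Hspa1b was called without Dex+IL-1B library 1, with adjusted p from 0.0433 to 0.722 over all. The pair shares 58.8% of the 50-base stretches of Hspa1a, so reads could be split between them or lost, and their promoter windows match at 296 of 300 positions.

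The endoplasmic reticulum pair can be seen beside its promoters. In the RefSeq windows of 250 bases before to 50 after the start (GRCm38.p6), the endoplasmic reticulum stress element, spelled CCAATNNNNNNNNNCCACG and searched on both strands, occurred in 0.119% of 32851 windows and in those of Hspa5 and Hsp90b1 among the members. Hspa5 lies at chr2:34771840-34772139, plus strand, and Hsp90b1 at chr10:86705395-86705694, minus strand. Both windows are shown because both hold the element. A link between the element and the changes of these genes with IL-1B was not tested. Capitals mark the element.
Hspa5: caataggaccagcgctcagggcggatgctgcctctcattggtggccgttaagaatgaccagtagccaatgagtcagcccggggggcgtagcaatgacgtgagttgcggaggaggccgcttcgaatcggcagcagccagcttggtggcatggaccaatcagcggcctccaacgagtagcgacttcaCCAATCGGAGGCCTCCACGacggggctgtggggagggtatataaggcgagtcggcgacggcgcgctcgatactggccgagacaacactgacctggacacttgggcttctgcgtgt
Hsp90b1: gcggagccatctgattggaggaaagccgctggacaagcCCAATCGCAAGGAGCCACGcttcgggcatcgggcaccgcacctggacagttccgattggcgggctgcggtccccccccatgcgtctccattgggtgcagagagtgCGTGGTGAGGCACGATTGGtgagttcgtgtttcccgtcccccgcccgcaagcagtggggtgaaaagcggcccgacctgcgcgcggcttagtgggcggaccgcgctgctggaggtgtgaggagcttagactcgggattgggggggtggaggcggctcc
The element began 65 bases before the start of Hspa5, and at 212 and, on the other strand, 107 bases before that of Hsp90b1. Dnajb11, a J-domain partner of BiP and the other endoplasmic reticulum member, had no match in its window. It was called with Dex+IL-1B against Dex (0.33 ± 0.096, adjusted p = 0.0344; 0.21 without the 2 libraries that stood apart, and up to 0.114 for the adjusted p over the alternatives) and not with IL-1B against untreated (0.24 ± 0.096, adjusted p = 0.0859). Without those 2 libraries it was called in the latter too (0.27, adjusted p = 0.0098), and with all libraries the difference between these responses was 0.090 ± 0.14 (adjusted p = 0.989).

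The HSP110 proteins, which act as nucleotide exchange factors for HSP70, split in direction. Hspa4 (APG-2) rose by 0.66 ± 0.14 with IL-1B (adjusted p = 0.00551; 0.49 without the 2 libraries that stood apart) and Hsph1 (HSP105) by 0.54 ± 0.13 (adjusted p = 0.0101; 0.0621 without untreated library 2). Hspa4l (APG-1), the member best known from testis, went the other way. It held 106, 104 and 97.1 CPM untreated, 104, 108 and 99.7 with Dex, 77.7, 82.7 and 64.9 with IL-1B and 63.8, 83.1 and 70.8 with Dex+IL-1B. No library with IL-1B reached the lowest library without it. The change was -0.45 ± 0.11 with IL-1B (adjusted p = 0.0104), -0.49 ± 0.11 with Dex+IL-1B against untreated (adjusted p = 0.00671) and -0.52 ± 0.11 against Dex (adjusted p = 0.00674), and it was called under every alternative in all 3 comparisons. Bag3, an exchange factor that sends clients to selective autophagy, held 8.14 ± 0.762 CPM untreated and 8.13 ± 1.05 with IL-1B (mean ± SD, n = 3), and its difference of -0.0015 had a 95% interval of -0.36 to 0.36.

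Of the 7 J-domain proteins, 3 were called higher with IL-1B. Dnajc2, a ribosome-bound partner that meets new chains as they are made, rose by 0.65 ± 0.15 (adjusted p = 0.00917), with 282 CPM in IL-1B library 2 against 182 and 183 in its group and a rise of 0.42 without the libraries that stood apart. Dnaja2 rose by 0.49 ± 0.097 (adjusted p = 0.00359) and Dnajb6, known for holding back aggregation, by 0.33 ± 0.078 (adjusted p = 0.00968). Dnajb1, the HSP40 that heat induces and that works with HSP70 on aggregates, held 106, 107 and 110.0 CPM untreated, 107, 121 and 110.2 with Dex, 94.9, 98.3 and 109 with IL-1B and 96.8, 100.1 and 101 with Dex+IL-1B. The IL-1B difference of -0.097 (95% interval -0.27 to 0.072) was not called (adjusted p = 0.412). All Dex+IL-1B libraries lay below the untreated and the Dex ones. The difference from Dex, -0.18 ± 0.079 (95% interval -0.35 to -0.012), was not called either (adjusted p = 0.146). Dnajc7, a tetratricopeptide protein that binds HSP70 and HSP90, gave -0.23 ± 0.092, adjusted p = 0.0901 and was not called in any of the 3 comparisons with IL-1B. Dnaja1, which serves HSP70 in many tissues, gave 0.19 ± 0.096, adjusted p = 0.171; leaving out the 2 libraries that stood apart brought it to 0.23 with adjusted p = 0.0172.

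The mitochondrial chaperonin held the member with the smallest adjusted p in all 3 comparisons with IL-1B. Hspd1 (HSP60) stood at 400.0, 376 and 398 CPM untreated, 392, 349 and 404 with Dex, 616, 630.3 and 591 with IL-1B and 639, 544 and 584 in the Dex+IL-1B libraries. The 6 libraries with IL-1B lay well above the 6 without. The rise was 0.65 ± 0.087 with IL-1B (adjusted p = 0.000525), 0.59 ± 0.087 with Dex+IL-1B against untreated (adjusted p = 0.000712) and 0.63 ± 0.087 against Dex (adjusted p = 0.000711). Hspe1 (HSP10), the lid of the same barrel, rose by 0.37 ± 0.11 with IL-1B (adjusted p = 0.0318), a call that was lost under several alternatives, among them without the 2 libraries that stood apart (0.38, adjusted p = 0.0571). It was not called with Dex+IL-1B against Dex (0.059 ± 0.11, adjusted p = 0.786). Reads of Hspd1 are also uncertain, since 39.7% of its 50-base stretches occur in other genes, mostly the pseudogene Hspd1-ps3.

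Hspd1 and Hspe1 are transcribed away from each other from a shared region. The heat shock element searched for, GAANNTTCNNGAA on both strands, occurred in 0.603% of the 32851 windows. Among the members it occurred in 7 of 40 windows, which belong to 5 of the 31 genes matched: Chordc1, Dnajb6, Hspd1, Hspe1 and Hsph1. Only exact matches to this spelling were counted, and looser forms were not searched for in the other members. To show how the match lies in each of these genes, the windows printed are Hspe1 at chr1:55087898-55088197 (plus strand, overlapping a window of Hspd1), Hsph1 at chr5:149636287-149636586 (minus strand), Dnajb6 at chr5:29735648-29735947 (plus strand) and Chordc1 at chr9:18292017-18292316 (plus strand), with the element in capitals.
Hspe1: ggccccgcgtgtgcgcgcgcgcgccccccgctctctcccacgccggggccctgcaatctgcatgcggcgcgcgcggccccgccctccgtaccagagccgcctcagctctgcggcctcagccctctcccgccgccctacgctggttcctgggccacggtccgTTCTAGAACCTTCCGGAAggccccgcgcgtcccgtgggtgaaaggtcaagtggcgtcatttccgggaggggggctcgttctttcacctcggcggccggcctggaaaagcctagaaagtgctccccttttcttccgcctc
Hsph1: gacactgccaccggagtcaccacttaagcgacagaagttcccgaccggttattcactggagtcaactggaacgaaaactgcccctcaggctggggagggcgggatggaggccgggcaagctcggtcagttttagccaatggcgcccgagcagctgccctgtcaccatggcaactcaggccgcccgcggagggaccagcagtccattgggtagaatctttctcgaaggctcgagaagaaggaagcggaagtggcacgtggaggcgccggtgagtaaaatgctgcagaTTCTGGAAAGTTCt
Dnajb6: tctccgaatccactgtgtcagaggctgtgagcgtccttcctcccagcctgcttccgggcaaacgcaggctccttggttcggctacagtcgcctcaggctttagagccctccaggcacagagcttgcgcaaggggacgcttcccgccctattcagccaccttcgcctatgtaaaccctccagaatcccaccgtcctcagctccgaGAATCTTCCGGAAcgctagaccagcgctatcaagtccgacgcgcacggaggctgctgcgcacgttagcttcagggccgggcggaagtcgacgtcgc
Chordc1: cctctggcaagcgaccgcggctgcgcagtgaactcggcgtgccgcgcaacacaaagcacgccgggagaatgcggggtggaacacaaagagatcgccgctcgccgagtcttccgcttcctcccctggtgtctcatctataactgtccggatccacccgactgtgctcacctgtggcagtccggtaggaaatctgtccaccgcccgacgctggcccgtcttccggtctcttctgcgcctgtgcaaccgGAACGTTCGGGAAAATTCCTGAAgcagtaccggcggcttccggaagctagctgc
Chordc1 held 3 overlapping copies at its start, and the region of Hspd1 and Hspe1 held 2 that overlap each other. Of these 5 genes, 4 were called higher with IL-1B, and Chordc1, with the most copies, was not (0.17 ± 0.080, adjusted p = 0.138). Among all 38 members 26 were called higher, and a link between the element and the rise was not tested. The members' windows also held the E-box CACGTG in 7.5% of cases against 7.15% of all windows, and the NF-kB motif in 17.5% against 8.46%. Windows of 1 gene, and those of Hspd1 and Hspe1, overlap and are not independent. The 7 windows with the NF-kB motif include those of Hspd1 and Hspe1, which hold the same site. They also include the near-identical windows of Hspa1a and Hspa1b, each with the same site 133 bases before the start. A link between this motif and the rise was not tested. The table held no entry for Hsp90aa1, Hsp90ab1, Hspa8, Hspa9, Dnajc2, Cct4, St13 and Hsf1.

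The subunits of the cytosolic chaperonin rose with IL-1B. All 7 listed subunits (Tcp1, Cct2, Cct3, Cct4, Cct5, Cct7 and Cct8) were called higher, with log2 fold changes from 0.36 for Cct2 to 0.63 for Cct5. Cct4 rose by 0.45, and by 0.29 without the 2 libraries that stood apart (adjusted p = 0.00396), and its call was lost when only the compared groups were fitted (adjusted p = 0.0535; 0.00146 to 0.0535 over the alternatives). The remaining subunit of the ring, Cct6a, from the list of other chaperones, rose by 0.73 ± 0.13 (adjusted p = 0.00210). Cct3 held 271, 254 and 273 CPM untreated, 264, 232 and 261 with Dex, 384, 362 and 383 with IL-1B and 411, 340.3 and 367 with Dex+IL-1B. Libraries with and without IL-1B did not overlap, and the rise was 0.50 ± 0.089 from untreated (adjusted p = 0.00206) and 0.56 ± 0.089 over Dex (adjusted p = 0.00136). Cct2 held 480.5, 505 and 516 CPM untreated, 554, 493 and 563 with Dex, 633, 686 and 603 with IL-1B and 635, 609 and 609 with Dex+IL-1B. It rose by 0.36 ± 0.083 with IL-1B (adjusted p = 0.00832), with no overlap between the groups, but its Dex libraries lay partly above the untreated ones and the rise over Dex, 0.20 ± 0.083, was not called (adjusted p = 0.123). Over Dex, 3 of the 7 were called (Cct3, Cct7 and Cct8), and Cct5 as well without the 2 libraries that stood apart (adjusted p = 0.014). Against untreated, Dex+IL-1B left only Cct4 uncalled (0.30 ± 0.11, adjusted p = 0.0710), and without those 2 libraries Cct4 was called too (0.31, adjusted p = 0.00292). The subunits also differed by library: IL-1B library 2 held 800.2 CPM of Cct5 and 772 of Tcp1, against 575 and 543, and 575 and 538, while for Cct3 and Cct8 that library was the lowest of its group. Without the 2 libraries that stood apart Cct5 rose by 0.45 (adjusted p = 0.000947) and Tcp1 by 0.44 (adjusted p = 0.00578).

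**Figure D2:**
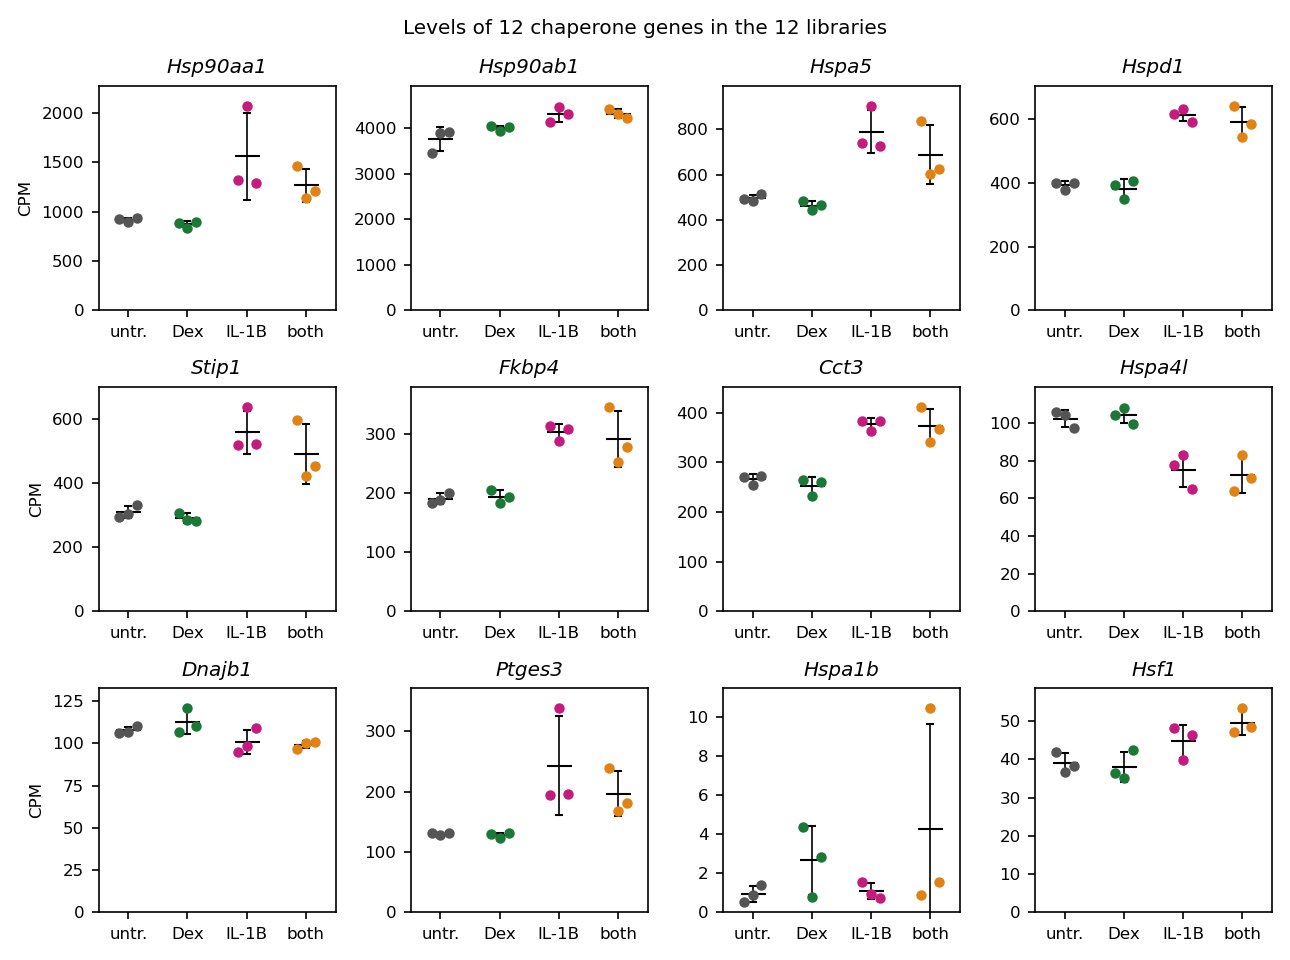
CPM of 12 genes in the 12 libraries, 1 point a library, with the group mean (bar) and SD (whiskers, n = 3); "both" stands for Dex+IL-1B and each axis starts at 0. IL-1B and both lie above untreated and Dex for Hsp90aa1, Hspa5, Hspd1, Stip1, Fkbp4, Cct3 and Ptges3, below for Hspa4l, and the Hspa1b mean in the last group rests on 1 library at 10.4 CPM.

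HSP90 co-chaperones rose for the most part, 6 of 8 with IL-1B. Stip1, the adaptor (HOP) that hands clients from HSP70 to HSP90, held 294, 302 and 331 CPM untreated, 308, 284 and 281 with Dex, 518, 636 and 521 with IL-1B and 597, 422 and 454 with Dex+IL-1B. Its libraries with IL-1B were fully above those without. The rise was 0.85 ± 0.13 with IL-1B (adjusted p = 0.000799) and 0.75 ± 0.13 over Dex (adjusted p = 0.00184). Fkbp4, the immunophilin FKBP52 that favours steroid receptor activity, held 182, 189 and 200.2 CPM untreated, 205, 183 and 193 with Dex, 313, 288 and 307 with IL-1B and 344, 252 and 278 with Dex+IL-1B. It too separated fully, with 0.67 ± 0.11 for IL-1B (adjusted p = 0.00113) and 0.59 ± 0.11 over Dex (adjusted p = 0.00293). Ahsa1, the activator of the HSP90 ATPase, held 113, 109 and 109 CPM untreated, 95.5, 92.9 and 96.0 with Dex, 150.3, 132 and 153 with IL-1B and 157, 132 and 140.2 with Dex+IL-1B. All 3 Dex libraries lay below the untreated ones, though Dex against untreated was not called (-0.21 ± 0.085, adjusted p = 0.410), and the rise was 0.40 ± 0.085 from untreated (adjusted p = 0.00525) and 0.59 ± 0.085 from Dex (adjusted p = 0.000847). The difference between those rises, 0.19 ± 0.12, was not called (adjusted p = 0.989).

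Ptges3, which encodes p23, the co-chaperone that closes the HSP90 cycle on steroid receptors, rose by 0.90 ± 0.19 with IL-1B (adjusted p = 0.00524). This size rested in part on IL-1B library 2, with 338 CPM against 195 and 197 in its group and 131, 128 and 132 in the untreated libraries. Without the 2 libraries that stood apart the rise was 0.60, less than those of Stip1 (0.76) and Fkbp4 (0.71), and the log2 fold change lay between 0.59 and 1.02 over all alternatives, called in each. Cdc37, which recruits kinases to HSP90, rose by 0.27 ± 0.078 (adjusted p = 0.0257; up to 0.102 over the alternatives) and St13 (HIP), which steadies HSP70 on its client, by 0.31 ± 0.078 (adjusted p = 0.0125; up to 0.0691). Chordc1 (CHP-1, a zinc-binding partner of HSP90) was called only with Dex+IL-1B against Dex (0.29 ± 0.081, adjusted p = 0.0307), where its Dex libraries, 73.2, 77.2 and 75.3 CPM, lay below the untreated 93.1, 84.2 and 84.7. Ahsa2, a relative of Ahsa1, gave 0.048 ± 0.12, adjusted p = 0.820, and 45.3% of its 50-base stretches are shared with other genes, chiefly Usp34 on the opposite strand, so its reads cannot be assigned with certainty.

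**Figure D3:**
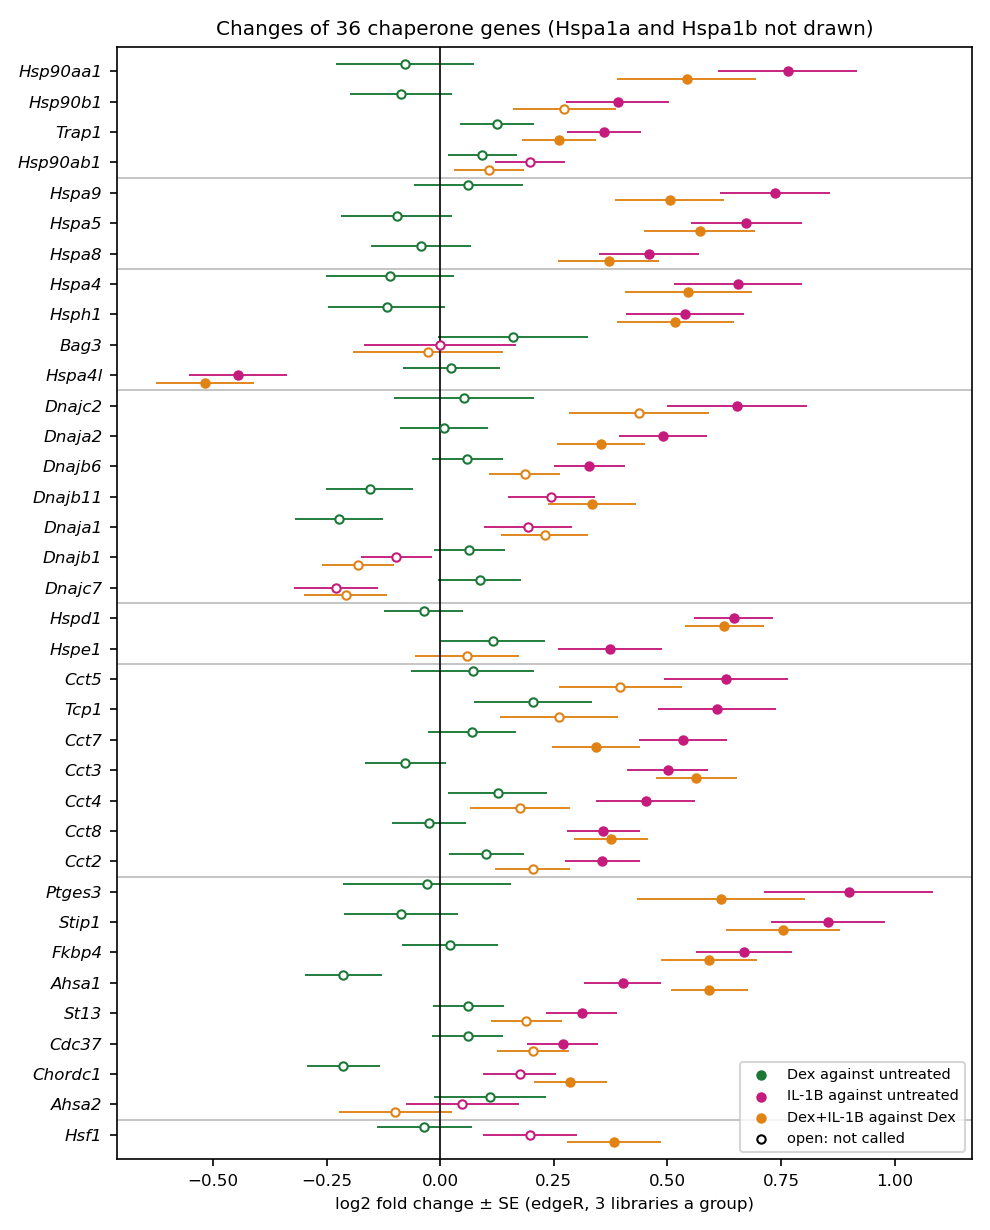
Log2 fold change ± SE of 36 members for Dex against untreated (green), IL-1B against untreated (magenta) and Dex+IL-1B against Dex (orange), filled where called; the IL-1B and the Dex+IL-1B comparison share no library. Hspa1a and Hspa1b, which had few reads and larger estimates, are not drawn. Green points lie near 0 and are all open, and the other colours lie right of 0 for most genes and left of it for Hspa4l.

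Hsf1, the heat shock factor itself, stood at 42.0, 36.7 and 38.3 CPM untreated, 36.6, 35.2 and 42.5 with Dex, 48.1, 39.8 and 46.3 with IL-1B and 47.1, 53.3 and 48.4 with Dex+IL-1B. The IL-1B libraries overlapped the untreated ones through library 2, and the Dex+IL-1B libraries lay above all libraries without IL-1B. It was not called with IL-1B (0.20 ± 0.10, adjusted p = 0.194; 0.29 and adjusted p = 0.0493 without the 2 libraries that stood apart) and was called with Dex+IL-1B against untreated (0.35 ± 0.10, adjusted p = 0.0319) and against Dex (0.38 ± 0.10, adjusted p = 0.0262). Both calls were lost in some alternatives, with adjusted p up to 0.172 and 0.127. The difference between the response with and without Dex was 0.18 ± 0.15 (adjusted p = 0.989). Hsf2, a related factor from the list of other chaperone genes, rose with IL-1B from 16.4 ± 0.976 to 27.6 ± 3.25 CPM (mean ± SD, n = 3), by 0.75 ± 0.11 (adjusted p = 0.000684), and over Dex by 0.81 ± 0.11 (adjusted p = 0.000549).

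Dex by itself called none of the 38 members, where 0.535% of all tested genes (74) were called, 0.369% higher and 0.166% lower; 3 members had an unadjusted p under 0.05 in edgeR, and DESeq2 also called 0. Those 3 were lower in every Dex library: Chordc1 (-0.21 ± 0.080, adjusted p = 0.359), Ahsa1 (-0.21, adjusted p = 0.410) and Dnaja1 (-0.22 ± 0.096, adjusted p = 0.464). For abundant members the 95% intervals were -0.072 to 0.26 for Hsp90ab1, -0.28 to 0.19 for Hspa8, -0.40 to 0.25 for Hsp90aa1, -0.22 to 0.15 for Hspd1 and -0.35 to 0.18 for Stip1. In the same libraries the HSP90-bound immunophilin Fkbp5, a known glucocorticoid target, went from 94.4, 99.5 and 100.1 CPM untreated to 209, 243 and 188 with Dex, with no overlap. It rose by 1.12 ± 0.098 (adjusted p = 4.828e-05), while the Dex difference of Fkbp4, the other steroid receptor immunophilin, was 0.022 ± 0.11 (adjusted p = 0.978).

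Adding Dex to IL-1B also called none of the 38, beside 0.275% of all genes (38 of 13821), 0.246% higher and 0.0289% lower; 2 members, Hspa1a and Hspa1b, had an unadjusted p under 0.05, and DESeq2 called 0. The median log2 difference of the members was -0.074 and that of all tested genes 0.0015. Hspe1 was the only member whose 3 Dex+IL-1B libraries (179, 186 and 186 CPM) all lay below the 3 IL-1B libraries (218, 212 and 203 CPM), a difference of -0.20 ± 0.11 (adjusted p = 0.811). For Hspd1 the interval of the difference was -0.24 to 0.13, for Stip1 -0.45 to 0.082 and for Hsp90aa1 -0.63 to 0.027. The interaction of the agents, the difference between the IL-1B response with and without Dex, was called for 0 of 13821 genes in edgeR (427 at an unadjusted p under 0.05, 0 of them members) and for 1 gene, no member, in DESeq2. Its estimates for the members other than Hspa1a and Hspa1b ran from -0.35 (Tcp1, interval -0.74 to 0.045) to 0.19 (Ahsa1).

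Further genes of protein folding were read from lists by function. Of 49 tested other chaperones and cofactors, 14 were called higher and 0 lower with IL-1B, and 10 and 0 with Dex+IL-1B against Dex. Besides Hsf2 and Cct6a they included Tomm70a, a mitochondrial import receptor that binds HSP70 and HSP90 (0.61 ± 0.094, adjusted p = 0.000959), Ppid, the cyclophilin 40 of HSP90 complexes (0.58 ± 0.086, adjusted p = 0.000801), and Dnajc21 (0.77 ± 0.13, adjusted p = 0.00166), which acts in the making of large ribosomal subunits. Of 12 mitochondrial import and protease genes, 8 were called higher and 0 lower (6 and 0 over Dex); the import pore Tomm40 rose by 0.62 ± 0.092 (adjusted p = 0.000844), the receptor Tomm20 by 0.55 ± 0.099 (adjusted p = 0.00219) and the inner membrane channel Timm23 by 0.72 ± 0.13 (adjusted p = 0.00221). These sit beside the called mitochondrial members Hspa9, Hspd1, Hspe1 and Trap1.

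In the endoplasmic reticulum list the share called was smaller. Of its 24 tested genes, 5 were called higher and 1 lower with IL-1B, beside 11.9% and 9.51% of all genes, and 3 and 0 over Dex. Hyou1, an HSP110 of that compartment, held 176, 160.0 and 188 CPM untreated and 268, 489 and 291 with IL-1B, highest in library 2, and rose by 1.00 ± 0.23 (adjusted p = 0.00869). Ern1, the sensor IRE1, rose by 0.48 ± 0.10 (adjusted p = 0.00585), and the disulfide isomerase Pdia3 was the member that was lower, at -0.23 ± 0.074 (adjusted p = 0.0398). Xbp1, whose mRNA IRE1 splices, was called with Dex against untreated (1.01 ± 0.17, adjusted p = 0.0172, a call lost when only the compared groups were fitted or without untreated library 1 or 2 or Dex library 1 or 3, up to 0.12) and was not called with IL-1B against untreated (0.22 ± 0.17, adjusted p = 0.370). Prefoldin and CCT cofactors gave 2 of 9 higher and 0 lower, Pfdn4 (0.43 ± 0.13, adjusted p = 0.0297) and Pfdn2 (0.52 ± 0.16, adjusted p = 0.0324).

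Of 15 clients of HSP90 known in T cells, 1 was called higher with IL-1B, the hypoxia factor gene Hif1a (0.26 ± 0.085, adjusted p = 0.0428). With Dex+IL-1B against Dex, 1 was called higher, the kinase gene Akt1 (0.28 ± 0.081, adjusted p = 0.0344), and 1 lower. The lower one was the glucocorticoid receptor gene Nr3c1, which changed by -0.40 ± 0.12 (adjusted p = 0.0374) and held 61.3, 59.6 and 62.5 CPM in the Dex and 44.0, 52.1 and 43.2 in the Dex+IL-1B libraries. Both calls were lost in some alternatives, with adjusted p up to 0.142 for Akt1 and 0.141 for Nr3c1. Immediate early genes, which rise when cells are stressed in handling, gave 0 of 12 higher and 3 lower with IL-1B; Fos changed by -1.43 ± 0.19 (adjusted p = 0.000525), from 9.72 ± 1.98 to 3.60 ± 0.768 CPM (mean ± SD, n = 3). Their part in the chaperone results was not tested, and neither was that of the lower T cell marker sum in the IL-1B libraries.

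**Figure D4:**
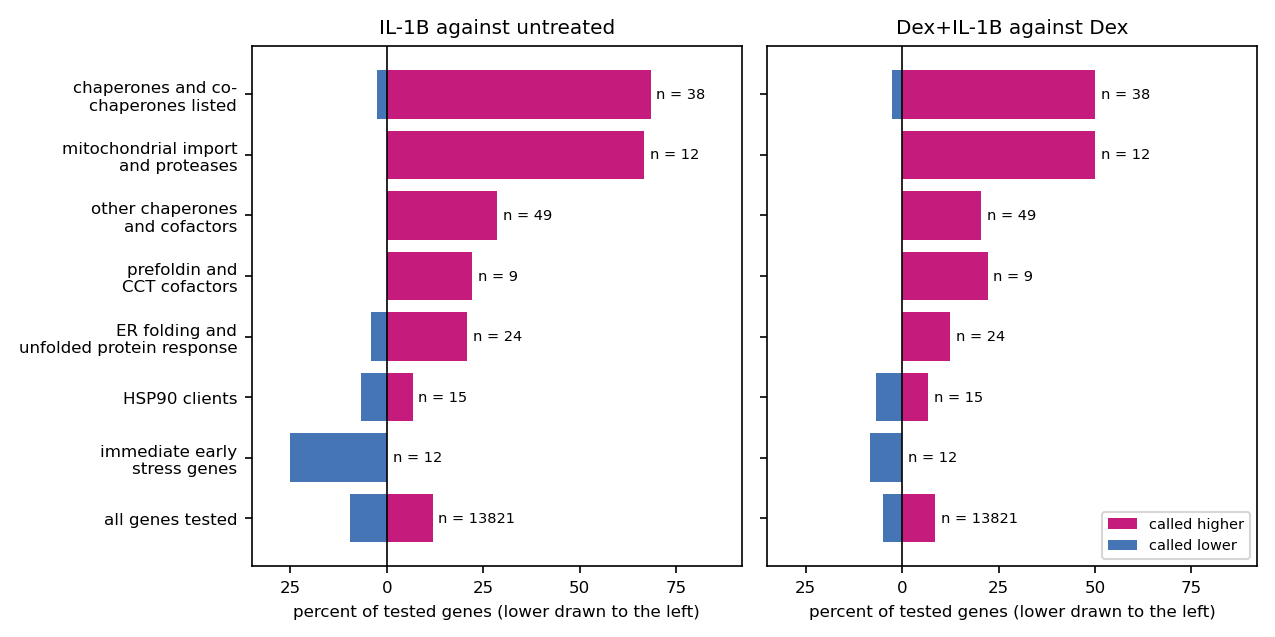
Percent of tested genes called higher (right of 0) and lower (left of 0) in each gene list, for IL-1B against untreated and Dex+IL-1B against Dex, with the number tested. Given as counts, 26 and 19 of the 38 chaperones and co-chaperones were called higher, and 8 and 6 of the 12 mitochondrial import and protease genes. The bars show these as percent of the genes tested. Those of all 13821 tested genes stand at 11.9% and 8.6%.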

How the data were processed

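RNA selected on poly-T beads, per the labels' protocols, was sequenced from 12 libraries. The values are the raw counts that the authors deposited, 1 whole number per gene and library, without scaling; 0 columns went unused. STAR 2.7.0a, HTSeq 0.6.1 and DESeq2 are named by the submitters' processing notes, as are GRCm38 and mm10, without their roles. A strand setting is not given in the sources used here, so overlapping genes on opposite strands may share reads. Identifiers were named with GENCODE vM21 (34490 of 35275 matched); 0 rows named no gene.

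Counts were filtered with filterByExpr (the genes left out hold 0.0562% of reads), scaled by the trimmed mean of M-values and fitted with edgeR 4.0.16 (robust quasi-likelihood, 4 groups in 1 model, 8 residual degrees of freedom, R 4.3.3), after a check on simulated counts. SEs are the log2 fold change over the square root of F. Alternatives were DESeq2 1.42.0, median-ratio scaling, no filter or at least 5 CPM in 3 libraries, the replicate number as a block, only the groups compared, each library left out, and, chosen after seeing the data, IL-1B library 2 and Dex+IL-1B library 1 both left out. Promoter windows came from RefSeq, with positions counted from the annotated start at 0.

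The members, their families and all lists were chosen with earlier results of these data known. The rule for values in every library took, per comparison, the 5 called members with the smallest adjusted p in each direction plus Hsp90aa1, Hsp90ab1, Hspa5, Hspa8, Hspa1a, Hspa1b, Hspd1, Dnajb1, Cct2 and Hsf1, and up to 4 genes of a list by adjusted p; other genes given with values were picked after these were seen. Some genes of the lists are not reported here by name.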

Additional observations from a re-analysis of the deposited data

How the results depend on the processing

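The count of genes called for Dex against untreated, 74, was 266 with DESeq2, 138 without a filter on low counts and 257 without IL-1B library 2 and Dex+IL-1B library 1, which stood apart. That for Dex+IL-1B against IL-1B, 38, was 95 with DESeq2 and 18 with only the groups compared, and that for the interaction, 0, was 1 with DESeq2. With single libraries left out, genes called ran from 16 to 257 (Dex against untreated), 1555 to 3337 (IL-1B against untreated), 1262 to 3384 (Dex+IL-1B against untreated), 17 to 46 (Dex+IL-1B against IL-1B) and 915 to 2597 (Dex+IL-1B against Dex). Members called higher ran from 21 to 27 with IL-1B, from 9 to 26 with Dex+IL-1B against untreated and from 7 to 21 against Dex, where members called lower were 1 or 2. Each such fit has fewer libraries; further causes were not tested. Calls held under every alternative for 21 of 27 members with IL-1B, 10 of 24 with Dex+IL-1B against untreated and 8 of 20 against Dex (Ahsa1, Cct3, Cct8, Fkbp4, Hspa4l, Hspa5, Hspd1 and Stip1).

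No member turned sign in a comparison that called it. Of those not called, 10, 3, 3, 18, 4 and 18 turned sign in at least 1 alternative for Dex, IL-1B and Dex+IL-1B against untreated, Dex+IL-1B against IL-1B and against Dex, and the interaction; leaving out IL-1B library 2 alone turned 9 in Dex+IL-1B against IL-1B and 9 in the interaction. With single libraries left out, Hsf1 ran from -0.13 to 0.018 and Hspd1 from -0.091 to 0.017 for Dex against untreated, Hspa1b from -0.14 to 0.57 for IL-1B against untreated, and Hspa1a from -2.12 to 1.63 and Hspa1b from -1.10 to 1.26 for Dex+IL-1B against Dex.

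Replicate numbers gave no clear sign of pairing, though a check on so few libraries cannot exclude it. Of 18 pairs of libraries with the same number in different groups, 5 had deviations correlated over 0.1 (-0.21 to 0.18). Of 36 pairs with different numbers, 6 did (-0.35 to 0.29), and 4 of 12 libraries correlated best with their own number. With the replicate number as a block, members called higher were 26, 17 and 17 in the 3 comparisons with IL-1B, and none was called in the others.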
